A study of Mus musculus with 12 samples.

Results

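The small leucine-rich proteoglycans examined were decorin (*Dcn*), asporin (*Aspn*), biglycan (*Bgn*), lumican (*Lum*), fibromodulin (*Fmod*) and osteoglycin (*Ogn*), a family of secreted proteins of the collagen matrix. Every array probe annotated to one of these 6 genes was taken, which gave 5 genes of the 9030 named on the array and 5 probes among the 20794 in the table, 1 each for *Dcn*, *Aspn*, *Bgn*, *Fmod* and *Ogn*. *Lum* had no probe among them and was not analysed here. The genes were picked with their ratios in this experiment known, so their mean ratios are given as a description, without a test.

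The study asked which genes change in the yolk sac when *Prdm6*, which encodes a PR domain protein implicated in vascular development, is lost. In the *Prdm6* del/del mice exon 3, flanked by loxP sites in ES cells, had been removed in the germ line with a Cre deleter, so every tissue of the embryo carried the deletion and no further treatment was given. RNA of 6 del/del yolk sacs of embryonic day 10.5 was hybridised against 1 pool of 6 wild type yolk sacs of the same age on 12 two-colour cDNA arrays, with dyes swapped. Because each array compared mutant RNA with the same pool, the wild type counted as 1 sample and its own spread is not in these values. The labels do not say which arrays shared a yolk sac, so the 12 arrays entered the tests as if independent, which makes the p-values too small, and the spread between arrays is partly technical. The del/del RNA was labelled with Cy5 on 5 arrays (replicates 1, 3, 5, 7 and 11) and with Cy3 on 5 (replicates 2, 4, 6, 10 and 12). On replicates 8 and 9 the labels name the same dye for both channels.

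Values are log2 ratios, below 0 where the del/del RNA gave the weaker signal. Scale and direction are not stated with the values. They were read from the heat plot of the study, which gives signed mean ratios of mutant to control for single probes, and the values of the same genes fit these ratios when read on the log2 scale with mutant over control on every array. Between 20011 and 20501 probes had a value on an array, and array medians lay between -0.057 and 0.045. A ratio carries no expression level and says nothing of how abundant a transcript was, and in whole yolk sacs fewer cells of a type and less RNA per cell cannot be told apart. For the same reason the tissue could not be checked from its markers.

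Small leucine-rich proteoglycans have a core of leucine-rich repeats that binds collagen, and most carry glycosaminoglycan chains. They settle on collagen fibrils as these form, set fibril diameter and spacing, and hold growth factors of the TGF-beta family in the matrix. Class I comprises *Dcn*, *Bgn* and *Aspn*, with *Dcn* and *Bgn* bearing chondroitin or dermatan sulfate and *Aspn* bearing a stretch of aspartate in place of chains. *Fmod* and *Lum*, of class II, carry keratan sulfate and compete for a site on collagen, while *Ogn*, of class III, also controls fibril growth. In the yolk sac such matrix lies in the mesodermal layer, with the mesothelium, the vessels and their blood cells, under the visceral endoderm.

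The genes lie in few places of the mouse genome (build GRCm38.p6, RefSeq). Positions were looked up for genes of the family only, not for other genes between them. *Aspn* (chr13:49544443-49567565) and *Ogn* (chr13:49608015-49624501) are close together on chromosome 13, with *Omd*, also of the family, between them. *Dcn* (chr10:97479500-97518163) is followed on chromosome 10 by *Lum* at a distance of 47.3 kb. *Fmod* (chr1:134037254-134048280) is on chromosome 1 at a distance of 107.2 kb from *Prelp*, and *Bgn* (chrX:73483601-73495936) is on the X chromosome. The 250 bases upstream of the gene start (RefSeq, GRCm38.p6, plus strand, 5′ to 3′) are shown for *Aspn* and *Fmod*, whose ratios were below 0 on every array, and for *Bgn*, whose ratios were not. *Dcn* was also below 0 on every array but, like *Lum*, had no entry in the promoter set used. The stretch of *Ogn* is not shown. Capitals mark matches, on either strand, to the TATA box (TATAAA), the CCAAT box (CCAAT), the GC box (GGGCGG), the E-box (CANNTG) and the GATA motif (GATAA).
Aspn, chr13:49544193-49544442: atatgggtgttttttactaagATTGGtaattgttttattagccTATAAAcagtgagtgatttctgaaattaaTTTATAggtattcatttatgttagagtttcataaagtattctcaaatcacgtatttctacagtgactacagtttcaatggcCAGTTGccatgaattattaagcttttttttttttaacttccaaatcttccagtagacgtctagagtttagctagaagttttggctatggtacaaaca
Fmod, chr1:134037004-134037253: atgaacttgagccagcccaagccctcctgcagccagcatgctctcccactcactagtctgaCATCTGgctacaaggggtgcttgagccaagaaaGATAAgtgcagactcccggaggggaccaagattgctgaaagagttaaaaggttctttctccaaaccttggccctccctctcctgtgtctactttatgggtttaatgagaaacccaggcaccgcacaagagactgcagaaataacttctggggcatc
Bgn, chrX:73483351-73483600: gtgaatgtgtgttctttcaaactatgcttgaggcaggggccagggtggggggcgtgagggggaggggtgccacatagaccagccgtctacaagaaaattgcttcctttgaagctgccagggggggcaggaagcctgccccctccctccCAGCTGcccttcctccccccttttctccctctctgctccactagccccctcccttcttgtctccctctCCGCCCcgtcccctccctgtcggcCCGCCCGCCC

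The stretch before *Aspn* was poor in G and C (30.0%), against a median of 52.4% over the 32851 mouse promoters of the same length. It held 2 TATA boxes, 1 CCAAT box and 1 E-box. The *Fmod* stretch (51.2% G and C) held 1 E-box and 1 GATA motif, and the *Bgn* stretch (64.4%) held 3 GC boxes, the last 2 of them overlapping, and 1 E-box. Of all promoters, 12.4% held a TATA box, 33.8% a CCAAT box, 32.7% a GC box, 66.2% an E-box and 22.6% a GATA motif. The E-box, the one motif found in all 3 stretches, was thus also the most frequent among promoters at large. The matches are a description of the letters only.

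*Aspn*, whose product binds collagen and TGF-beta, had the lowest mean ratio of the family (probe 19564). With del/del in Cy5, the log2 ratio was -0.57 on replicate 1, -1.18 on replicate 3, -1.66 on replicate 5, -2.02 on replicate 7 and -1.40 on replicate 11. With del/del in Cy3, it was -0.59 on replicate 2, -0.90 on replicate 4, -1.34 on replicate 6, -0.72 on replicate 10 and -1.35 on replicate 12. On replicates 8 and 9 it was -1.60 and -0.56. All 12 arrays were below 0, and both dye orientations covered much of the same range. The mean was -1.16 ± 0.49 (SD, n = 12 arrays), a 2.23-fold lower signal, and 0.648% of the tested probes had a mean as low or lower.

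*Fmod*, whose product binds fibrillar collagen and guides its cross-linking, came next (probe 4187). Its log2 ratio with del/del in Cy5 was -1.21, -0.94, -0.28, -0.19 and -0.19 on replicates 1, 3, 5, 7 and 11. The Cy3 orientation gave -1.01, -1.20, -0.78, -1.09 and -0.68 on replicates 2, 4, 6, 10 and 12, and replicates 8 and 9 gave -1.02 and -0.91. All 12 arrays were again below 0, with the 3 values nearest to 0 on replicates 5, 7 and 11, all of the Cy5 orientation. The mean was -0.79 ± 0.38 (SD, n = 12), a 1.73-fold lower signal, and 1.12% of the tested probes lay as low or lower.

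*Dcn*, the prototype of the family and a ligand of collagen, TGF-beta and growth factor receptors, was lower on all 12 arrays by a smaller margin (probe 18922). Its log2 ratio with del/del in Cy5 was -1.19, -1.02, -0.47, -0.56 and -0.47 on replicates 1, 3, 5, 7 and 11. The Cy3 orientation gave -0.11, -0.51, -0.75, -0.054 and -0.58 on replicates 2, 4, 6, 10 and 12, and replicates 8 and 9 gave -0.50 and -0.63. Replicates 2 and 10 were close to 0, while replicates 1 and 3 showed the lowest values. The mean was -0.57 ± 0.32 (SD, n = 12), a 1.49-fold lower signal, and 1.82% of the tested probes lay as low or lower.

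*Bgn*, the close relative of *Dcn* that binds many of the same ligands, had ratios on both sides of 0 (probe 19878). Its log2 ratio with del/del in Cy5 was 0.23, -0.042, 0.40, 0.20 and 0.58 on replicates 1, 3, 5, 7 and 11. The Cy3 orientation gave 0.25, -0.21, -0.25, 0.22 and -0.23 on replicates 2, 4, 6, 10 and 12, and replicates 8 and 9 gave -0.16 and 0.12. It was higher on 7 arrays and lower on 5, with a mean of 0.09 ± 0.27 (SD, n = 12) and a median of 0.16. The lowest value of *Bgn*, -0.25, was above the mean of each of *Dcn*, *Aspn* and *Fmod*.

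*Ogn*, also known as mimecan, had values on 9 arrays only, and its sign followed the dye (probe 2371). The log2 ratio was 1.37, 1.10, 1.98, 16.7 and 1.78 on replicates 1, 3, 5, 7 and 11, all with del/del in Cy5. It was -4.66, -2.54 and -0.68 on replicates 4, 10 and 12, with del/del in Cy3, and 2.88 on replicate 9, where the labels name Cy5 for both channels. Values were missing on replicates 2, 6 and 8, whose del/del channel is labelled Cy3. The fitted mean with a dye term was 1.20, and without replicate 7 it was -0.10, so no direction is given for *Ogn*. The value of replicate 7 was 1 of 480 in the table beyond 8 in size, all of them above 0 where the del/del channel was labelled Cy5 and below 0 where it was labelled Cy3.

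**Figure D1:**
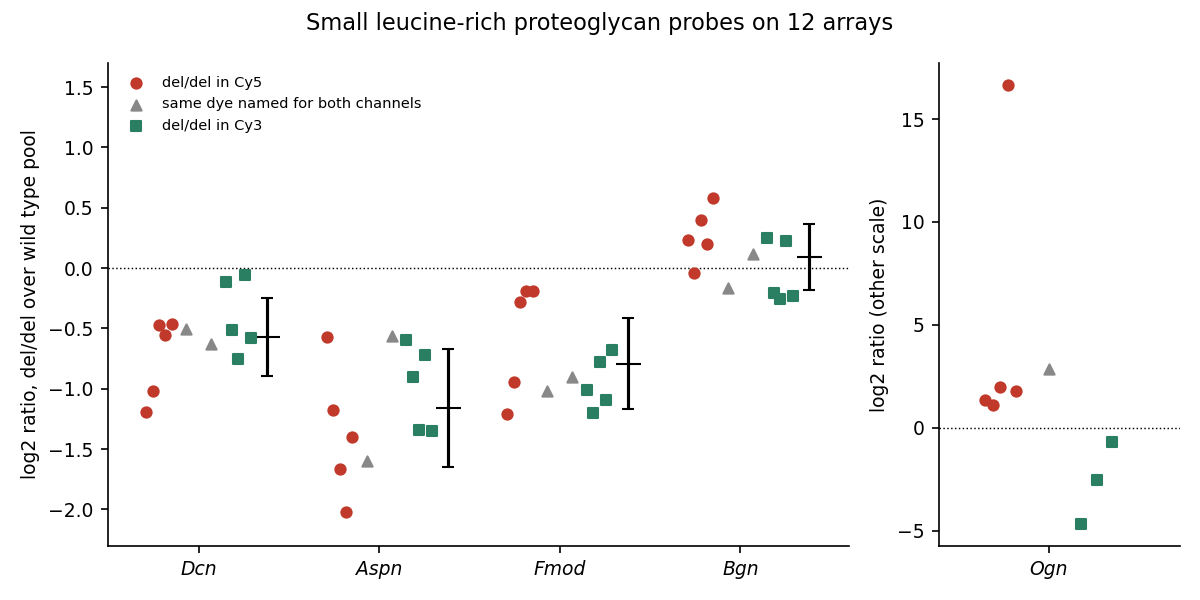
Log2 ratio of del/del over the wild type pool (vertical axis, direction as deposited) for each member probe, 1 point per array, with dye orientation by colour and shape, the bar at the right of each gene giving mean ± SD over 12 arrays, and *Ogn* on a scale of its own without a mean. All points of *Dcn*, *Aspn* and *Fmod* are below 0, where the means of -0.57, -1.16 and -0.79 stand, *Bgn* straddles 0, and *Ogn* is above 0 with del/del in Cy5 and below 0 in Cy3.

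The thresholds of the study's methods, a false discovery rate under 5% and a change over 1.3-fold, were applied to the 20516 probes measured on 8 arrays or more, with limma and a term for dye. *Dcn*, *Aspn* and *Fmod* were past them in the lower direction, 3 of the 5 member probes, where 1.07% of all probes were past them, 0.907% lower and 0.166% higher. Since the genes were chosen on this contrast, nothing is read from that count. The study's own list of changed genes was shorter than the calls made here and did not name *Dcn*, *Aspn* or *Fmod*. Of the genes working with the family that are called below, it named only *Col11a1* and *Mmp2*. Of the 18157 probes with a value on every array, 0.870% were below 0 on all 12, as *Dcn*, *Aspn* and *Fmod* were, and 0.176% were above 0 on all 12. The median ratio of all probes was -0.0037, and the median SD over arrays was 0.41, which the SD of *Aspn* exceeded and those of *Dcn*, *Fmod* and *Bgn* did not. With any single array left out, the mean stayed between -0.61 and -0.52 for *Dcn*, between -1.24 and -1.09 for *Aspn*, between -0.83 and -0.73 for *Fmod* and between 0.058 and 0.12 for *Bgn*.

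The choice of the genes did not use the difference between dye orientations, which was tested for each probe. The mean ratio with del/del in Cy5 minus that in Cy3 was -0.34 (SE 0.19) for *Dcn*, with an adjusted p of 0.231 in limma. For *Aspn* it was -0.39 (SE 0.28, limma adjusted p = 0.371), for *Fmod* 0.39 (SE 0.22, limma adjusted p = 0.234) and for *Bgn* 0.32 (SE 0.16, limma adjusted p = 0.193). None of the 4 passed the threshold of 0.05, which 12.2% of all probes did, but differences of this size between orientations were not small beside the means of *Dcn* and *Bgn*. For *Ogn* the difference was 7.09 (SE 3.34, limma adjusted p = 0.179). With all values beyond 8 set to missing, an alternative chosen after seeing the data, it was 4.06 with a limma adjusted p of 0.0488.

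From array to array the members varied together in some pairs and not in others. After the mean and the dye term were removed, the deviations of *Aspn* and *Fmod* over the 12 arrays ran opposite to each other (Pearson r = -0.70), those of *Dcn* and *Bgn* ran together (0.73), and those of *Dcn* followed *Fmod* in part (0.49). *Dcn* and *Aspn*, both of class I and both lower, had an r of -0.22, *Bgn* and *Aspn* one of 0.31 and *Bgn* and *Fmod* one of 0.29. The 12 arrays share 1 wild type pool and 6 yolk sacs, so these are descriptions without a p.

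The dyes alternate along the replicate numbers, and replicates 1 and 2, 3 and 4 and so on were taken as presumed dye-swap pairs of 1 yolk sac each, which the labels do not state. The pair means of *Aspn* were -0.58, -1.04, -1.50, -1.81, -0.64 and -1.38, in the order of the numbers. They spanned far more than the difference between the 2 arrays of a pair, which was 0.42 at most. For *Fmod* the pair means were -1.11, -1.07, -0.53, -0.60, -0.997 and -0.44, with differences inside a pair of up to 0.82. The 3 pairs with the lowest *Aspn* values (5 and 6, 7 and 8, 11 and 12) were the 3 with the *Fmod* values nearest to 0. For *Dcn* the pair means were closer together, at -0.65, -0.76, -0.61, -0.53, -0.34 and -0.52, and the arrays of a pair differed by up to 1.08. The pair means of *Bgn* lay between -0.13 and 0.24, with differences inside a pair of up to 0.81. Over the 6 presumed pairs *Dcn* and *Bgn* had a Pearson r of 0.53 (exact permutation p = 0.286, adjusted 0.954 over 14 relations) and a Spearman rho of 0.31 (exact permutation p = 0.564, adjusted 0.877). Without the 2 pairs farthest from the median of *Dcn* r was -0.46, so the sign of r over the presumed pairs depended on those 2 pairs. The r over the 12 arrays was not recomputed without them.

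**Figure D2:**
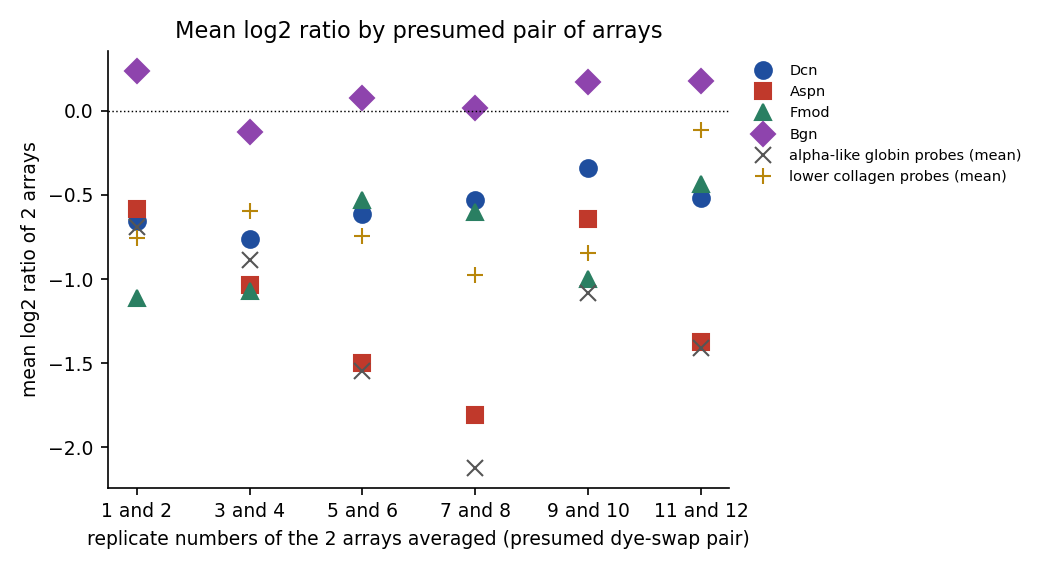
Mean log2 ratio of the 2 arrays of each presumed dye-swap pair (vertical axis, direction as deposited) against their replicate numbers (horizontal axis), for *Dcn*, *Aspn*, *Fmod*, *Bgn*, the mean of 7 globin probes and the mean of 8 collagen probes. *Aspn* runs from -0.58 to -1.81 beside the globin probes, while *Fmod* is nearest to 0 in the pairs where *Aspn* is lowest.

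Globin ratios ran closely with those of *Aspn* across arrays. The 7 probes of the alpha-like globins (6 for *Hba-a1*, adult alpha-globin, and 1 for *Hba-x*, embryonic zeta-globin) had a mean log2 ratio of -1.29 ± 0.57 (SD, n = 12), and over the 12 arrays their mean deviation had an r of 0.88 with that of *Aspn*. Against the same probes, r was -0.15 for *Dcn*, -0.48 for *Fmod* and 0.39 for *Bgn*. Over the 6 presumed pairs *Aspn* and the globin probes had a Pearson r of 0.91 (exact permutation p = 0.0111, adjusted 0.156 over 14 relations) and a Spearman rho of 0.94 (exact permutation p = 0.0167, adjusted 0.233). Without the 2 pairs farthest from the median of *Aspn* r was 0.76. For *Fmod* and the globin probes r was -0.79 (exact permutation p = 0.0778, adjusted 0.395), and for *Aspn* and *Fmod* it was -0.83 (exact permutation p = 0.0847, adjusted 0.395). These relations were picked after the values were seen, and none passed after adjustment. The part of red cell content in the *Aspn* ratio was not tested.

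**Figure D3:**
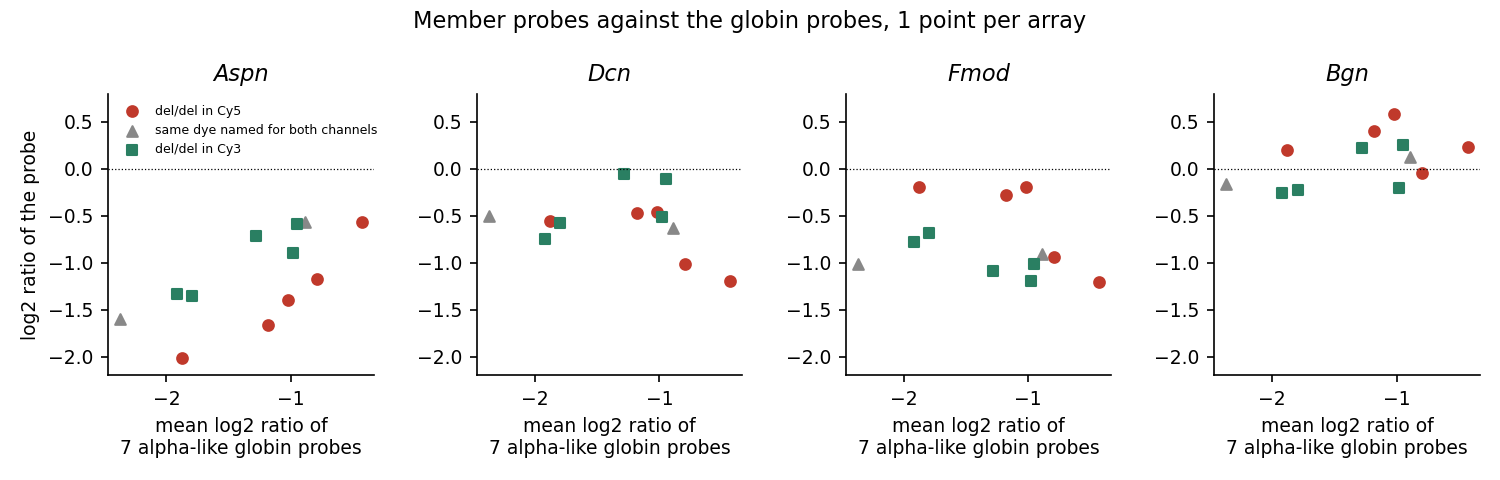
Log2 ratio of each member probe (vertical axes) against the mean log2 ratio of 7 globin probes (horizontal axes), 1 point per array, coloured by dye orientation. *Aspn* falls from about the level of replicate 1 (-0.57) to that of replicate 7 (-2.02) as the globin probes fall, with the Cy3 arrays mostly above the Cy5 arrays, and the other 3 genes show weaker or opposite slopes (r of deviations -0.15 for *Dcn*, -0.48 for *Fmod* and 0.39 for *Bgn*).

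The nearest probes on the array, by the correlation of deviations over the 12 arrays, differed between *Dcn* and *Aspn*. For *Dcn*, the 5 named probes of highest correlation were *H3f3b*, a histone variant (r = 0.96), *Tspo2*, a translocator protein of red cell precursors (0.94), *Hps6*, a factor of lysosome-related organelles (0.92), *Dlst*, an enzyme of the tricarboxylic acid cycle (0.91), and *Plekhb2*, a membrane trafficking protein (0.90). None of the 5 was among the lower genes, with mean log2 ratios between -0.08 and 0.22, and with only the mean removed the r of *H3f3b* was 0.73. For *Aspn*, looked up after its values were seen, the nearest were *Nudt4* (r = 0.97, mean log2 ratio -0.70), a probe of *Hba-a1* (0.95, -1.42), *Qrich1* (0.95, -1.10), *Hba-x* (0.92, -1.25) and *Slc43a2*, an amino acid transporter (0.89, -1.43). The next 5 were *Ucma*, a matrix protein of cartilage (0.88, -1.28), another probe of *Hba-a1* (0.87, -1.48), *Impdh1* (0.86, -0.10), *Alas2*, the first enzyme of haem synthesis in red cells (0.85, -1.15), and *Maco1* (0.85, -0.018). Of the 10, *Impdh1* and *Maco1* had mean ratios near 0.

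Genes that work with the family were counted from lists, a gene being lower or higher when at least 1 of its probes passed the limma thresholds. Over all 8956 genes tested, 1.32% were lower and 0.335% higher, and the median was -0.0038, while 15.8% had a probe with an unadjusted p under 0.05. When limma's robust and trend options were both on, an alternative chosen after seeing the data in which the prior variance follows each probe's mean ratio, 0 probes passed, while 1938 reached 0.05 unadjusted. Among the other small leucine-rich proteoglycans, 2 of 12 had a probe and neither passed in limma, nor at an unadjusted p under 0.05 (0 of 2). *Prelp*, the family gene nearest to *Fmod*, whose product anchors basement membranes, had log2 ratios of -0.20 and 0.0029 on its 2 probes (limma adjusted p = 0.462 and 0.991). *Chad*, chondroadherin of cartilage, had -0.062 and 0.0095 (limma adjusted p = 0.743 and 0.991).

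Of the collagens that the family binds, 12 of 14 were measured and 7 were lower, with a median of -0.36 and none higher. At an unadjusted p under 0.05 in limma there were 9 of the 12, 8 below 0 and 1 above. The 1 above was *Col11a2*, named after its values were seen, with 0.76 ± 1.24 (SD, n = 10, limma adjusted p = 0.35). *Col11a1*, a minor chain that nucleates fibrils, fell on all 12 arrays, with a log2 ratio of -1.21 ± 0.58 (SD, n = 12; limma adjusted p = 0.0008), but its other probe gave -0.055 (limma adjusted p = 0.89). *Col3a1*, a chain of loose connective tissue, fell by 0.51 on the log2 scale (limma adjusted p = 0.00361), with a mean of -0.061 for del/del in Cy5 and -0.83 in Cy3. *Col5a1*, which sets fibril diameter, fell on 2 of 3 probes, by 0.53 and 0.50 (limma adjusted p = 0.0388 and 0.0238), and the third gave -0.18 (limma adjusted p = 0.858). *Col1a1*, the main fibrillar chain, fell by 0.43 on 1 probe (limma adjusted p = 0.0292), its other probe giving -0.20 (limma adjusted p = 0.655). *Col2a1*, *Col5a2* and *Col14a1*, of cartilage fibrils, of mixed fibrils and of fibril surfaces, were the other lower genes, named after their values were seen. Their log2 ratios were -0.91, -0.48 and -0.81 (limma adjusted p = 0.0399, 0.0377 and 0.0462). A second probe gave -0.39 for *Col2a1* and -0.14 for *Col5a2* (limma adjusted p = 0.232 and 0.932). With any 1 of replicates 1 to 10 left out, 2 to 4 collagens were lower. Without replicate 11 there were 8, with *Col1a2* added, and without replicate 12 there were 7, with *Col1a2* in place of *Col14a1*. With presumed pairs averaged 2 passed, *Col11a1* and *Col3a1*. The deviations of the 8 lower collagen probes had an r of -0.042 with *Dcn*, 0.026 with *Aspn*, 0.36 with *Fmod* and 0.21 with *Bgn* over the 12 arrays.

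In each of the other lists of partner genes 0 to 2 genes passed, where 1.32% of all genes tested were lower and 0.335% higher. Among 16 measured of 23 genes that process or cross-link collagen, 1 was lower, *Pcolce*, an enhancer of procollagen cleavage. Its log2 ratio was -0.60 ± 0.52 (SD, n = 12; limma adjusted p = 0.0197) on 1 probe and -0.26 and -0.30 on the other 2 (limma adjusted p = 0.212 and 0.278), and it did not pass when replicate 2, 3, 6, 7 or 9 was left out. Among 19 measured of 32 genes for glycosaminoglycan chains, none passed in either direction in limma, and 4 had a probe with an unadjusted p under 0.05. The 2 of lowest adjusted p were *Chst11*, a chondroitin sulfotransferase, and *B3gat3*, of the linker to the core protein. *Chst11* had 0.22 on 1 probe (limma adjusted p = 0.15) and -0.17 on the other (limma adjusted p = 0.685). *B3gat3* had 0.26 (limma adjusted p = 0.194). Among 15 measured of 16 matrix proteases and inhibitors, *Mmp2*, a gelatinase that also cleaves *Dcn* protein, fell on all 12 arrays by 0.47 (SD 0.20; limma adjusted p = 0.00162).

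Growth factors and receptors that bind the family included the 1 higher gene. *Tgfb3*, a TGF-beta ligand, rose on all 12 arrays by 0.45 ± 0.25 on the log2 scale (SD, n = 12; limma adjusted p = 0.0106), and the other 13 of the 14 measured of 23 did not pass (median of the list -0.014). Among 16 measured of 22 other proteoglycans, *Gpc4*, a membrane heparan sulfate proteoglycan, fell on all 12 arrays by 0.97 (SD 0.32; limma adjusted p = 9.93e-05) on 1 probe, with -0.34 on the other (limma adjusted p = 0.207). *Sdc3*, a syndecan, fell by 0.41 (SD 0.27; limma adjusted p = 0.0126). With presumed pairs averaged, *Mmp2* and *Gpc4* passed and *Pcolce*, *Sdc3* and *Tgfb3* did not.

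**Figure D4:**
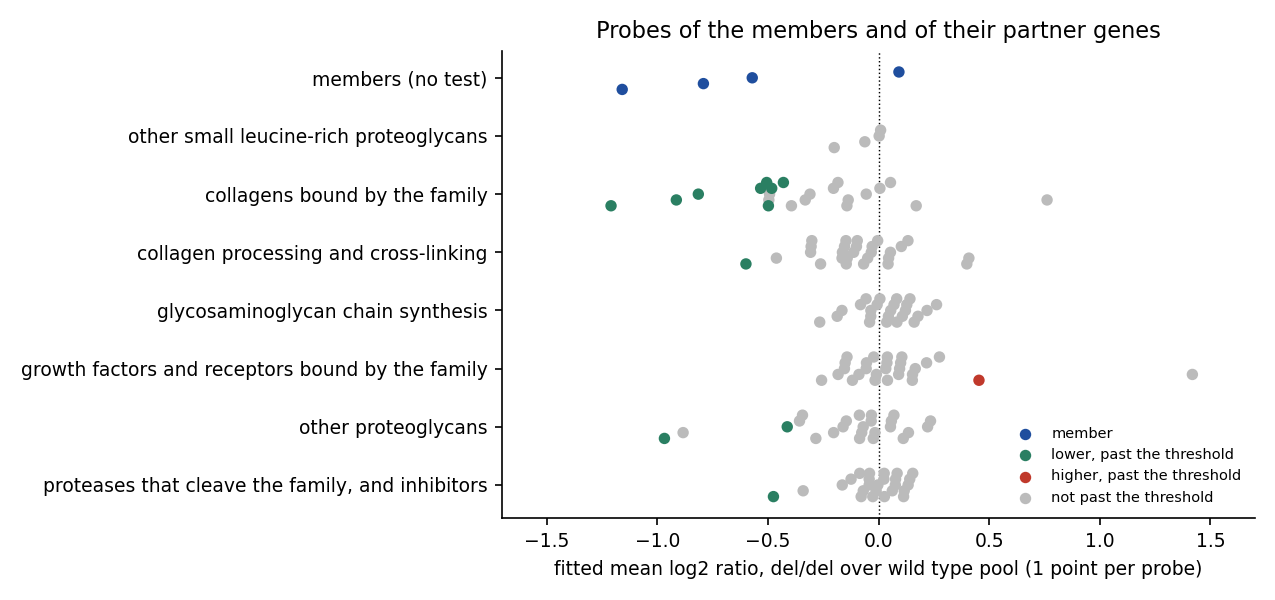
Fitted mean log2 ratio of del/del over the wild type pool (horizontal axis, direction as deposited), 1 point per probe, for 4 member probes (blue, no test; *Ogn* left out) and for probes of 7 lists of partner genes (vertical axis), green where lower and red where higher past the limma thresholds. Green points lie mostly in the collagen list, where 7 of 12 genes were lower, and *Tgfb3* is the single red point.

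Marker genes of other cell types were counted in the same way. Of 12 measured genes of mesenchyme and fibroblasts, none was lower or higher in limma, with a median of -0.069, and 4 were below 0 at an unadjusted p under 0.05. The 2 of smallest adjusted p were *Twist2*, a mesenchymal factor, and *Pdgfrb*, of mural cells. *Twist2* had -0.50 and -0.21 on its 2 probes (limma adjusted p = 0.0794 and 0.497), and *Pdgfrb* had -0.37 (limma adjusted p = 0.172). By the median of their probes 8 of the 12 genes were below 0. *Prrx1* (0.19, limma adjusted p = 0.453), *Twist1* (0.16, limma adjusted p = 0.542), *Vim* and *Thy1* were above 0. None of the measured genes of mesothelium (3), visceral endoderm (6), endothelium (7) and smooth muscle (2) passed in limma. In that order, 1, 0, 2 and 0 genes reached an unadjusted p under 0.05, and the medians were -0.0098, 0.003, -0.084 and -0.18. *Htra3*, the 1 measured gene of decidua and trophoblast, did not pass either, nor at an unadjusted p under 0.05. It had 0.084 and -0.20 on its 2 probes (limma adjusted p = 0.882 and 0.463). The 4 measured red cell genes of 8 (*Hba-a1*, *Hba-x*, *Alas2* and *Slc4a1*) were all lower, with a median of -1.25 and a range of -1.37 to -1.15. Of the *Hba-a1* probes 1 did not pass, with -0.91 ± 0.76 (SD, n = 12; limma adjusted p = 0.0656), lower on 11 arrays. Of 5 measured cartilage genes 1 was lower, *Col9a3*, with -2.53 on 1 probe (limma adjusted p = 3.42e-05) and 0.063 and 0.093 on its other 2 (limma adjusted p = 0.826 and 0.831). A second cartilage gene reached an unadjusted p under 0.05 (2 of 5), *Col9a2*, named after its values were seen, with -1.08 ± 0.94 (SD, n = 12; limma adjusted p = 0.0646), lower on 10 arrays. The part of cell composition in the lower ratios of *Dcn*, *Aspn* and *Fmod* was not tested.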

How the data were processed

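The authors hybridised labelled cDNA of del/del yolk sacs and of the wild type pool to 12 arrays and deposited 1 log2 ratio per probe and array. Background correction and normalization are not given in the sources used here, and the scale was read from the signed ratios of the study's heat plot. The labels describe labelling of total RNA, whereas the study's methods describe amplified RNA. Sequencing depth does not apply to arrays, and the 6 del/del yolk sacs and the 1 wild type pool limit the precision. Gene names came from the platform annotation (12771 probes with 1 symbol, 8023 with none) and RefSeq, GRCm38.p6.

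The deposited values were fitted with limma 3.58.1 in R 4.3.3 (lmFit, eBayes), mean against 0 with a dye code of 1, -1 or, on replicates 8 and 9, 0, for 20516 probes with at least 8 values. A call needed a Benjamini-Hochberg adjusted p under 0.05 over all probes and a change over 1.3-fold, as in the study's methods. Array correlations had a median of 0.124 within and -0.115 between dye orientations (lowest -0.193).

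The members, the gene lists and the tests were chosen with earlier results of these data known. Named genes were every member probe, the other family genes with a probe, in each list up to 4 genes past the thresholds or else the 2 of smallest adjusted p, and the 5 probes most like *Dcn*. Alternatives varied the dye term, arrays, direction, centring, scaling, filters, thresholds and variance moderation. *Prdm6* itself was not analysed here.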

Additional observations from a re-analysis of the deposited data

How the results depend on the processing

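Over all probes limma called 220, of which 186 were lower and 34 higher, with 11 partner genes lower and 1 higher. Higher probes numbered 22 without the dye term, 21 on the 10 arrays with different dyes and 52 with no fold threshold. Partner genes higher numbered 2 without the dye term, 2 with the dye of replicates 8 and 9 read from the del/del channel and 2 with values beyond 8 missing, and partner genes lower numbered 5 on the 10 arrays. With presumed pairs averaged, 113 probes passed, 103 lower and 10 higher, with 4 partner genes lower and 0 higher. At 1.5-fold, 132 passed, 119 lower and 13 higher, with 5 partner genes lower and 0 higher, and with the probes of a gene averaged 120 genes passed, 98 lower and 22 higher. With robust and trend both on, chosen after seeing the data, 0 passed in every count, and the smallest limma adjusted p was 0.39.

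With the signs of the Cy3 arrays turned, on the 10 arrays with different dyes, which is not the direction of the study's heat plot, 1521 probes passed, 499 lower and 1022 higher, with 2 partner genes lower and 6 higher. *Dcn* and *Aspn* then had means of -0.17 and -0.19, *Fmod* turned to 0.19, *Col11a1* to 0.28, *Col3a1* to 0.38, *Col5a1* to 0.34, *Gpc4* to 0.15 and *Sdc3* to 0.16, values that measure the dye difference. Leaving out 1 array gave 165 to 214 calls, 146 to 184 lower and 18 to 35 higher, with 5 to 12 partner genes lower and 1 higher each time. The largest losses among partner genes lower were without replicates 2 and 7 (5 each). *Col11a1*, *Col3a1*, *Gpc4*, *Sdc3*, *Mmp2* and *Tgfb3* passed whichever array was left out. Without the dye term *Col3a1*, *Pcolce* and 1 probe of *Col5a1* no longer passed, and on the 10 arrays *Sdc3* and the collagens other than *Col11a1* and *Col3a1* no longer did. *Col14a1* was also lost with arrays centred and with the minimum of arrays at 3. Centring and scaling turned no direction of *Dcn*, *Aspn*, *Fmod* or *Bgn*. Robust alone, trend alone and the filters on missing values cannot change the fitted mean of a probe, so they say nothing of these directions. Centring, scaling, robust alone, trend alone and these filters left the counts over all probes and of partner genes within 1.5 times. Most of the other settings above moved at least 1 of these counts further. An analysis by yolk sac could not be run, since the labels do not state the pairs, and averaging presumed pairs stood in for it. Signal over background cannot be judged, since it is not in the values used.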
